A study of Mus musculus with 12 samples.

Results

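Havcr1, Clu, Lcn2 and Krt8, 4 genes used as markers of injured kidney tubules, were followed in kidney cortex of diabetic mice with and without an induced menopause. The genes were taken by their platform symbols, which gave 4 genes of 6786 named on the arrays and 5 clones of 15600, since Krt8 has 2 clones. The study held 6 mice. The 3 Diabetic mice had received STZ (streptozotocin, which kills pancreatic beta cells), and the 3 Menopausal/diabetic mice had received VCD (vinylcyclohexene diepoxide, which destroys small ovarian follicles) in addition to STZ. All 6 mice were therefore diabetic by treatment, no mouse without STZ and no mouse with VCD alone is among these samples, and cortex RNA was taken 6 weeks after STZ. The labels give neither strain nor age. Two-colour arrays of spotted cDNA clones compared the mice in pairs: 6 arrays set a menopausal/diabetic mouse against a diabetic one, 3 set diabetic mice against each other and 3 set menopausal/diabetic mice against each other. Each mouse was on 4 arrays, 2 in each dye.

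Havcr1 encodes a membrane receptor, also called kidney injury molecule, that injured proximal tubule cells place on their surface and with which they take up dying cells. Lcn2 encodes a secreted protein that binds iron-carrying siderophores. After kidney injury it is made above all in the distal nephron and collecting duct, and neutrophils store it in granules. Clu encodes clusterin, a secreted chaperone made by stressed tubule cells of both proximal and distal segments. Krt8 encodes a type II keratin that pairs with the type I keratin of Krt18 in the intermediate filaments of simple epithelia, is normally strongest in distal and collecting duct cells, and is raised in injured tubules.

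Several facts about the arrays bear on every value below. The animal identifiers written inside the files match the titles on 11 of 12 arrays, and the array titled as diabetic 2 with diabetic 3 carries another identifier in both dyes. Results are therefore also given without that array. An array's median spot intensity above its surroundings was 25.3 to 209 units for Alexa Fluor 546 and 14.6 to 107 units for Alexa Fluor 647, and 30.5% to 57.4% of spots were detected. The tissue label was set against markers: 6 of 35 proximal tubule markers are on the array, and all 6 passed the brightness filter described below, as did the 6 leukocyte markers on it; how bright different clones are does not rank their transcripts. Of the proximal list, transporters such as Slc34a1 and Slc5a2 were not measured. In bulk cortex, fewer cells of a type and less RNA per cell cannot be told apart.

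On GRCm38.p6, Havcr1 lies at chr11:46739822-46779578, Clu at chr14:65968483-65981548, Lcn2 at chr2:32384637-32387739 and Krt8 at chr15:101996711-102004342. The position of each clone within its gene is not given, so whether a spot reads an exon near either end is unknown here. As a measure of spot signal, and not of transcript level, the clone of Clu (BG072209) stood at brightness percentile 94.5 among clones, that of Havcr1 (BG071634) at 88, that of Lcn2 (BG070106) at 70.3, and those of Krt8 at 74.6 (BG065443) and 66.1 (BG064050). All 5 clones passed the filter that left out the dimmest 25% of clones, and the brighter Krt8 clone stood for Krt8. Havcr1 and Clu were detected on all 12 arrays. Lcn2 was detected on 8 arrays, the brighter Krt8 clone on 9 and the dimmer one on 7, so ratios of these clones rest in part on signals near background.

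The bases before the start sites of Lcn2 and Krt8 are shown because both genes are usually listed as switched on in injured epithelium, yet their values below differ in pattern. They come from RefSeq on GRCm38.p6, each being the 250 bases before the start on the minus strand, at chr2:32387740-32387989 for Lcn2 and chr15:102004343-102004592 for Krt8. Capitals mark matches to GGGNNNNNCC, a loose form of the NF-kappaB motif, or to TTNNGNAA, a form of the C/EBP motif, on either strand.
Lcn2: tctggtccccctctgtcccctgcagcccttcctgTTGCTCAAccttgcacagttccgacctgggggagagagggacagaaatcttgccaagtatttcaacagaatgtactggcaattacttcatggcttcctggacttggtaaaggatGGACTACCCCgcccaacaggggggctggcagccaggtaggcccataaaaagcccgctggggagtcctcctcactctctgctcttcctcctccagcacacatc
Krt8: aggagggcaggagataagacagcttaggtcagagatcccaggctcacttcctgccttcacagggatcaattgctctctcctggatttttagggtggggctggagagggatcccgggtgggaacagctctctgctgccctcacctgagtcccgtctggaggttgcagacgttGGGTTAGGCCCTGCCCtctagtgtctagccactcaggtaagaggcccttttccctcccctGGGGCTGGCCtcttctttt
In Lcn2 the NF-kappaB form begins at base -102 and the C/EBP form at base -216, counted from the start site. In Krt8 the NF-kappaB form begins at -79, -78, -73 and -19, the first of these overlapping one another, and the C/EBP form has no match in the window. Of 32851 start sites in the table, 45.8% hold the NF-kappaB form and 36.8% the C/EBP form in windows of the same length, so a match is common. TATAAA, the TATA box, was searched too and has no match in either window, against 12.4% of all start sites. Havcr1 has 3 start sites in the table, of which the second holds the C/EBP form at -46 and none holds the NF-kappaB form.

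Between the groups, the mean of Clu was higher and that of Havcr1 lower in menopausal/diabetic cortex, with no overlap between the 3 mice of each group. Lcn2 was high in 1 diabetic mouse and low in the other 5. Krt8 differed little. None of the 4 differences passed the test over mice, in which the 6 levels were compared 3 against 3 by limma with Benjamini-Hochberg adjustment over 9958 features: 0 features were called (0%), and the smallest adjusted p was 0.239. At an unadjusted p under 0.05 the same limma fit held 833 features (8.37%), 512 higher and 321 lower in menopausal/diabetic mice. Against the error between arrays alone, which leaves out the spread between mice, 22 features were called (0.221%), and Havcr1 and Clu were among them. All 3 menopausal/diabetic mice lay above all 3 diabetic mice in 7.63% of features and below them in 6.59%. An exact permutation of 3 mice against 3 has 20 splits and cannot give a two-sided p under 0.1.

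**Figure D1:**
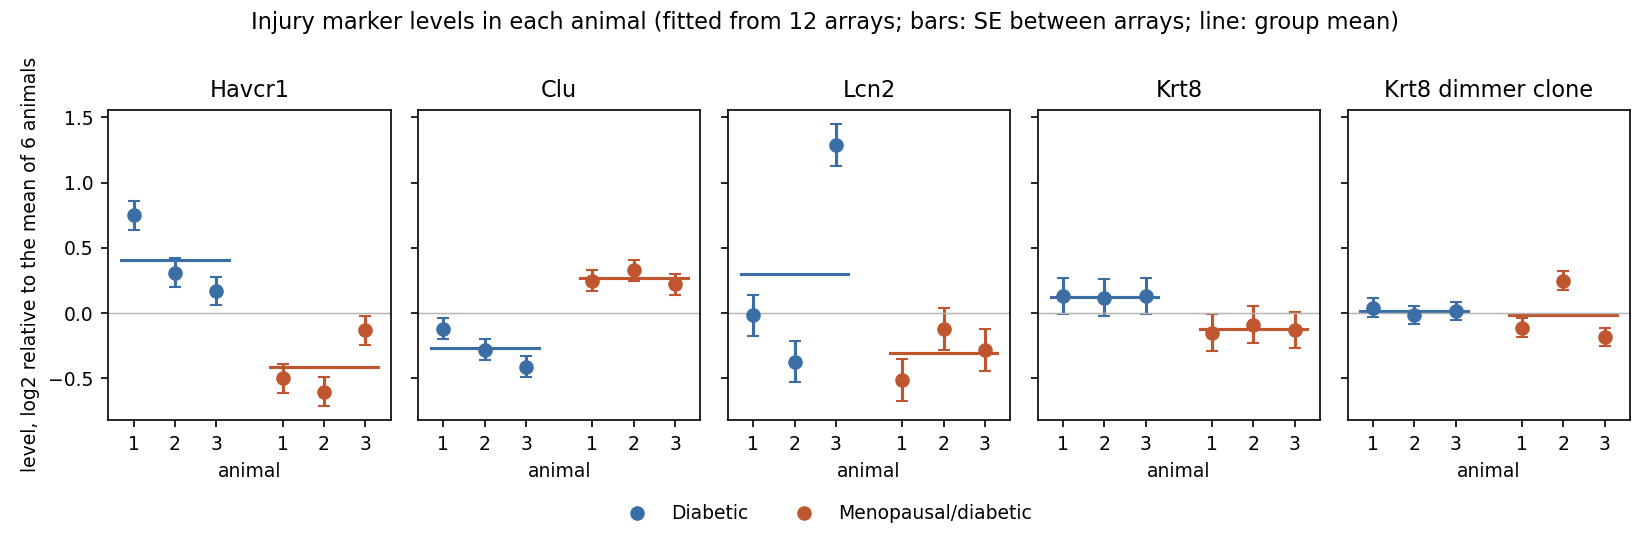
Level of each marker in each mouse, on a log2 scale relative to the mean of the 6 mice, with the standard error between arrays as bars and each group's mean as a line. Havcr1 and Clu separate the groups in opposite directions, Lcn2 reaches 1.29 in diabetic 3 only, and the 2 Krt8 clones differ in pattern.

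Havcr1, the proximal marker, was higher in the diabetic mice. Its log2 level relative to the mean of the 6 mice was 0.75 in diabetic 1, 0.31 in diabetic 2 and 0.17 in diabetic 3, against -0.50, -0.60 and -0.13 in menopausal/diabetic 1, 2 and 3. Each level had a standard error between arrays of 0.11. The groups did not overlap, but the nearest mice, diabetic 3 and menopausal/diabetic 3, were 0.30 apart with a 95% interval of -0.13 to 0.72 from the error between arrays. Without the array with another identifier, diabetic 2 (0.15) and not diabetic 3 (0.32) was the diabetic mouse nearest to menopausal/diabetic 3 (-0.16). The only neighbours in the order of levels whose interval left out 0 were diabetic 1 and diabetic 2, which differed by 0.44 (0.052 to 0.83). The group means were 0.41 ± 0.31 (SD, n = 3) in diabetic and -0.41 ± 0.25 (SD, n = 3) in menopausal/diabetic mice.

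The difference for Havcr1 was -0.82 ± 0.18 (SE) on the log2 scale, a level 1.76-fold higher in diabetic mice, with an adjusted p of 0.446 by limma over mice. The exact permutation p was 0.1, the smallest it can give. With arrays as the error, the adjusted p by limma was 0.039. An array that pairs mice of 1 group cannot move a group difference in this balanced design, so leaving out the array with another identifier is no check of these differences. The 3 diabetic mice ranged over 0.59 (adjusted p 0.253, moderated F test over arrays) and the 3 menopausal/diabetic mice over 0.47 (adjusted p 0.943). The range among diabetic mice passed the threshold with loess per print block (0.81, adjusted p 0.0385) and was 0.20 with median centring (adjusted p 0.862).

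Array by array, Havcr1 was lower in the menopausal/diabetic mouse on 6 of 6 arrays between the groups, as were 1.4% of features. The log2 ratios were -1.34 on the array of menopausal/diabetic 3 with diabetic 1, -1.13 for menopausal/diabetic 2 with diabetic 3 and -1.0 for diabetic 1 with menopausal/diabetic 2. They were -0.80 for menopausal/diabetic 1 with diabetic 2, -0.40 for diabetic 3 with menopausal/diabetic 1 and -0.23 for diabetic 2 with menopausal/diabetic 3. The 2 largest sizes came from arrays with the diabetic mouse in Alexa Fluor 647, and the fitted dye term of Havcr1 was 0.24 toward that dye. Among diabetic mice, diabetic 1 exceeded diabetic 2 by 0.37 and diabetic 3 by 0.55 on the arrays that paired them. Among menopausal/diabetic mice, menopausal/diabetic 3 exceeded menopausal/diabetic 2 by 1.0 and menopausal/diabetic 1 by 0.094, the 2 spots of the latter array differing in sign (-0.42 and 0.23 for Alexa Fluor 647 over 546). The ratio of 1.0 rests on signal near background, with 14 and 51 intensity units over background for menopausal/diabetic 2 in Alexa Fluor 546. On the third array menopausal/diabetic 2 exceeded menopausal/diabetic 1 by 0.44, against their fitted order. The fitted mouse levels accounted for 90.5% of the variation of Havcr1 around its mean over the 12 arrays, a mean that the dye term takes up. Levels of 6 mice fitted to 12 arrays take up part of the variation of pure noise too. This share alone therefore does not show differences between mice.

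Clu, the secreted chaperone, ran the other way. Its level was -0.12 in diabetic 1, -0.28 in diabetic 2 and -0.41 in diabetic 3, against 0.25, 0.33 and 0.22 in menopausal/diabetic 1, 2 and 3, each with a standard error between arrays of 0.081. The 3 menopausal/diabetic mice lay close together and above every diabetic mouse. The gap between the nearest mice of the groups, menopausal/diabetic 3 and diabetic 1, was 0.35 with a 95% interval of 0.07 to 0.62, and it was the only step in the order whose interval left out 0. The group means were -0.27 ± 0.14 (SD, n = 3) in diabetic and 0.27 ± 0.055 (SD, n = 3) in menopausal/diabetic mice.

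The difference for Clu was 0.54 ± 0.08 (SE), a level 1.45-fold higher in menopausal/diabetic mice, with an adjusted p of 0.283 by limma over mice and an exact permutation p of 0.1. By unadjusted p it ranked 10 of 9958 features. With arrays as the error, the adjusted p was 0.0425. Clu was higher in the menopausal/diabetic mouse on 6 of 6 arrays between the groups, as were 1.83% of features. The log2 ratios were 0.95 for menopausal/diabetic 1 with diabetic 2, 0.67 for menopausal/diabetic 2 with diabetic 3, 0.60 for diabetic 3 with menopausal/diabetic 1, 0.53 for menopausal/diabetic 3 with diabetic 1, 0.30 for diabetic 2 with menopausal/diabetic 3 and 0.19 for diabetic 1 with menopausal/diabetic 2. The ratios of 0.30 and 0.19 were smaller in size than the 0.40 between menopausal/diabetic 2 and menopausal/diabetic 3. Both were of Alexa Fluor 647 over 546, for which the fitted dye term of Clu was -0.17. Within-group ratios of Alexa Fluor 647 over 546 ran from -0.40 to 0.19. Neither group's mice differed from each other past the threshold, with ranges of 0.29 among diabetic mice (adjusted p 0.548) and 0.11 among menopausal/diabetic mice (adjusted p 0.997).

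**Figure D2:**
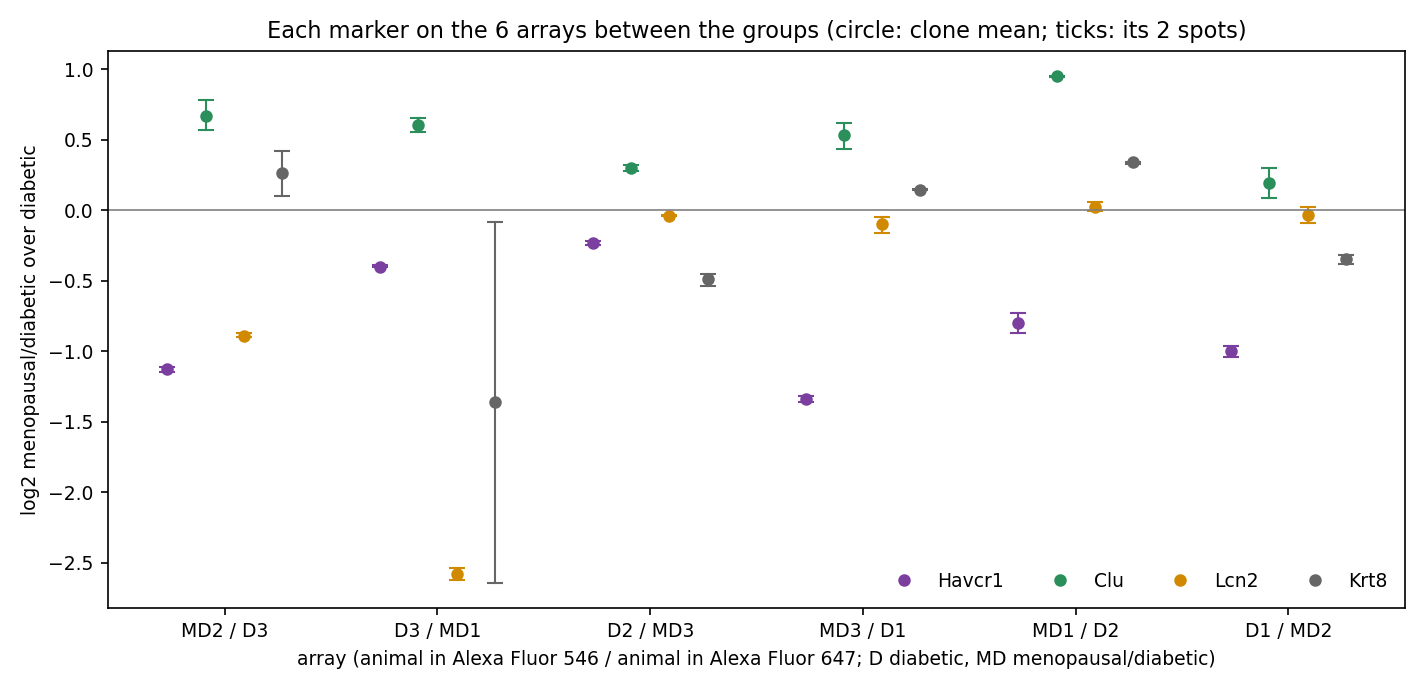
Log2 ratio of the menopausal/diabetic over the diabetic mouse for each marker on the 6 arrays that pair the groups, with circles for the clone and ticks for its 2 spots. Havcr1 lies below 0 and Clu above 0 on all 6 arrays, Lcn2 leaves the line near 0 on the 2 arrays that carry diabetic 3, and the Krt8 spots on 1 array are 2.56 apart.

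Lcn2, the secreted siderophore binder, stood out in a single diabetic mouse. Its level was 1.29 in diabetic 3, against -0.017 in diabetic 1, -0.37 in diabetic 2 and -0.51, -0.12 and -0.28 in menopausal/diabetic 1, 2 and 3, with a standard error between arrays of 0.16 each. Diabetic 3 lay 1.31 above the next mouse (95% interval 0.76 to 1.86), and no other step in the order had an interval that left out 0. The groups overlapped, and the diabetic group's SD was 0.88 against 0.20 in the menopausal/diabetic group (n = 3 each). The group difference was -0.60 ± 0.40 (SE) with an adjusted p of 0.722, an exact permutation p of 0.3 and an array-error adjusted p of 0.181. The difference was -0.038 without diabetic 3, -0.33 without menopausal/diabetic 1 and -0.38 without the array that pairs these mice.

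The 3 diabetic mice differed in Lcn2, with an adjusted p of 0.0224 in limma's moderated F test, in which 144 of 9958 features (1.45%) were called. The same test called 0 features (0%) among the menopausal/diabetic mice, with 511 features at an unadjusted p under 0.05 and a smallest adjusted p of 0.287 by limma, and gave Lcn2 an adjusted p of 0.967 there. The call among diabetic mice was lost without the array with another identifier, where the range of the diabetic levels was 1.55 instead of 1.66 and the adjusted p was 0.232. It was also lost when some single arrays were left out (diabetic 1 with diabetic 2, diabetic 2 with menopausal/diabetic 3, menopausal/diabetic 1 with diabetic 2, or diabetic 1 with menopausal/diabetic 2), with adjusted p values of 0.0532 to 0.0673 and ranges of 1.64 to 1.73. With any 1 of the 6 mice left out the adjusted p was 0.0559 to 0.735, the highest without diabetic 3.

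On all 4 arrays that carry diabetic 3, Lcn2 was higher in that mouse than in its partner. On the array with menopausal/diabetic 1 the 2 spots of Lcn2 read 2285 and 2176 intensity units over background for diabetic 3 in Alexa Fluor 546 against 146 and 117 for the partner, a log2 ratio of 2.58 for diabetic 3. With menopausal/diabetic 2 they read 358 and 370 for diabetic 3, here in Alexa Fluor 647, against 45 and 45, a ratio of 0.89. The array titled diabetic 2 with diabetic 3 read 415 and 375 for diabetic 3 against 57 and 55, a ratio of 1.70, and this is the array whose identifier goes against its title. With diabetic 1 they read 749 and 803 for diabetic 3 against 182 and 180, a ratio of 1.02. High readings thus came in both dyes and in both spots of the clone. On the 8 arrays without diabetic 3 the ratios of Lcn2 lay between -0.29 and 0.10, and the clone was detected on 4 of those 8 arrays against 4 of 4 with diabetic 3.

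Krt8 gave the least settled values of the 4. The brighter clone had levels of 0.13, 0.12 and 0.13 in diabetic 1, 2 and 3 and of -0.15, -0.087 and -0.13 in menopausal/diabetic 1, 2 and 3, with a standard error between arrays of 0.14 each. The groups did not overlap, yet every step in the order of levels was smaller than its error, and the closeness of the 3 diabetic levels is less than that error too. The difference was -0.25 ± 0.044 (SE over mice), with an adjusted p of 0.328, an exact permutation p of 0.1 and an array-error adjusted p of 0.631. Without the array with another identifier the diabetic levels were 0.13, -0.05 and 0.30, and menopausal/diabetic 2 stood at -0.05 too, so that the groups touched.

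On the arrays between the groups, the brighter Krt8 clone was higher in the menopausal/diabetic mouse on 3 and lower on 3. The log2 ratios were 0.34 for menopausal/diabetic 1 with diabetic 2, 0.26 for menopausal/diabetic 2 with diabetic 3 and 0.14 for menopausal/diabetic 3 with diabetic 1. They were -0.35 for diabetic 1 with menopausal/diabetic 2, -0.49 for diabetic 2 with menopausal/diabetic 3 and -1.36 for diabetic 3 with menopausal/diabetic 1. The sign followed the dye, since all 12 ratios of Alexa Fluor 647 over 546 were below 0 and the fitted dye term was -0.47. On the array with the lowest ratio the 2 spots disagreed, at -2.64 and -0.081, with 4593 and 621 intensity units over background in Alexa Fluor 546, and neither spot was marked by the scanner. The difference was -0.041 without that array, -0.074 without diabetic 3 and -0.097 without menopausal/diabetic 1. On the array of diabetic 1 with menopausal/diabetic 2 both spots read below their local background, at -664 and -809 units in Alexa Fluor 546.

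The dimmer Krt8 clone did not share the pattern. Its levels were 0.043, -0.013 and 0.018 in diabetic 1, 2 and 3 and -0.11, 0.25 and -0.18 in menopausal/diabetic 1, 2 and 3, with a standard error between arrays of 0.07. The groups overlapped and the difference was -0.032 ± 0.11 (SE), with an adjusted p of 0.988 by limma when this clone stood for the gene. The fitted mouse levels accounted for 28.4% of the variation of the brighter clone around its mean over the arrays. The share was 75.5% for the dimmer clone, 89% for Clu and 89.5% for Lcn2. The dye term equals that mean and has no part in these shares. Such a fit takes up part of the variation of pure noise too, and the share for noise was not computed. None of these shares alone shows differences between mice. Krt18, the filament partner of Krt8, overlapped between the groups as well, with a difference of -0.11 ± 0.11 (SE, adjusted p 0.847) that turned to 0.052 without background correction. Of 23 genes of keratins and their junction partners 9 were measured, 0 were called in either comparison, and the median difference was 0.04.

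Set against each other within each mouse, the proximal marker and Clu separated the groups in opposite directions. Havcr1 minus Clu was 0.88, 0.59 and 0.57 in diabetic 1, 2 and 3 and -0.75, -0.93 and -0.35 in menopausal/diabetic 1, 2 and 3. These are differences of relative log2 levels, and say nothing of which transcript was more abundant. The group means of this contrast were 0.68 ± 0.17 and -0.68 ± 0.30 (SD, n = 3 each), a separation that follows from those of the 2 genes given above and adds nothing to them. Havcr1 minus Lcn2 was 0.77 and 0.68 in diabetic 1 and 2 but -1.13 in diabetic 3, and 0.011, -0.48 and 0.15 in menopausal/diabetic 1, 2 and 3. Diabetic 1 had the highest Havcr1 and diabetic 3 the highest Lcn2 of the 6 mice. Havcr1 in diabetic 2 and diabetic 3 was not apart (0.14, 95% interval -0.25 to 0.53), and their order turned without the array with another identifier. Across these mice the groups overlapped for that contrast (difference -0.21, exact permutation p 0.8). Havcr1 minus Krt8 was 0.63, 0.19 and 0.04 in diabetic mice and -0.34, -0.51 and -0.0044 in menopausal/diabetic mice (exact permutation p 0.1). Over the 12 arrays, which share mice, the log ratios of Havcr1 and Clu had a Pearson correlation of -0.63, those of Clu and Lcn2 -0.63, and those of Havcr1 and Lcn2 0.20.

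A wider list of 42 tubular injury genes, the 4 markers included, had 20 members measured. By limma over mice 0 of 20 were called in either direction, 10 were higher and 10 lower in menopausal/diabetic mice, and the median difference was -0.0052 against -0.0017 over all features. The highest differences were those of Clu, of Mdk (midkine, a heparin-binding growth factor) at 0.44 ± 0.13 (SE, adjusted p 0.535), and of Krt7, a keratin of collecting duct and urothelium, at 0.25 ± 0.10 (adjusted p 0.584). The lowest were those of Havcr1, Lcn2 and Krt8. Mdk was -0.17, 0.024 and -0.51 in the diabetic mice and 0.23, 0.15 and 0.28 in the menopausal/diabetic mice, with no overlap. In 7 of the 20 genes diabetic 3 had the lowest level of the 6 mice and in 5 the highest, that is 35% and 25%, against 22.4% and 26.8% of all features. Within the diabetic group Lcn2 was the 1 gene of the 20 that passed the F test, which called 1.45% of all features. Havcr1 passed too with loess per print block.

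Genes of the acute phase and of NF-kappaB signalling are often switched on beside Lcn2. Of 27 such genes 9 were measured, and 0 were called in either comparison. Diabetic 3 was lowest in 1, Serping1, at -0.25 (11.1%, against 22.4% of all features). It was highest in 3, or 33.3% against 26.8% of all features. The 3 that were highest there were Cxcl1, Socs3, a feedback inhibitor of cytokine signalling, at 0.17, and Lbp, a binder of bacterial lipopolysaccharide, at 0.031. The last 2 were named after their values were seen. Cxcl1, a neutrophil-attracting chemokine, had 0.32 in diabetic 3 against -0.16 to 0.091 in the other mice (group difference -0.17, adjusted p 0.726). Nfkbia, the inhibitor that NF-kappaB induces, had -0.10 in diabetic 3 and a group difference of 0.18 ± 0.053 (SE, adjusted p 0.535). Nfkbiz, a nuclear cofactor of NF-kappaB needed for Lcn2 induction in mouse cells, had -0.025 in diabetic 3 and a group difference of 0.14 (adjusted p 0.581). Of 27 leukocyte markers, which include the neutrophil granule genes that go with Lcn2 in those cells, 6 were measured and 0 passed a test. Their median level was -0.076 in diabetic 3 and -0.04 to 0.034 in the other mice. Ltf and S100a9, both neutrophil genes, had 0.098 and 0.088 in diabetic 3, the highest S100a9 being 0.40 in menopausal/diabetic 2. The rest of the 6 were below 0 in diabetic 3: Lyz2 had -0.20, Fcer1g -0.13, C1qa -0.10 and C1qb -0.048. The defining neutrophil markers S100a8, Ly6g, Elane, Mpo, Camp and Ngp were not measured, and the part of leukocytes in the Lcn2 result was not tested.

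Proximal tubule markers were low in the mouse with high Lcn2. Diabetic 3 had the lowest level in 5 of the 6 measured (83.3%, against 22.4% of all features), and the median of the 6 was -0.99 in diabetic 3 against -0.046 to 0.28 in the other mice. The median brightness percentile of the 6 was 96.5. Shares over all features, here and for the lists that follow, were not matched for brightness. The F test among diabetic mice, which called 1.45% of all features, called 4 of the 6: Gatm, the enzyme of creatine synthesis, with -1.66 in diabetic 3 (adjusted p 0.00906), Lrp2, or megalin, the endocytic receptor that takes up filtered proteins including lipocalin 2, with -1.15 (adjusted p 0.0065), Slc22a7, an organic anion transporter, with -1.10 (adjusted p 0.00378), and Miox, the inositol oxygenase, with -0.89 (adjusted p 0.00293). Dab2, the adaptor of megalin, had -0.40 and Gpx3, a secreted peroxidase, 0.14 in diabetic 3, and neither passed (adjusted p 0.0743 and 0.575). Without the array with another identifier, Miox was the 1 of the 4 that kept its call (adjusted p 0.0225), while the ranges of the others stayed near their size: 2.12 from 2.18 for Gatm (adjusted p 0.119), 1.35 from 1.39 for Lrp2 (0.0872) and 1.64 from 1.79 for Slc22a7 (0.0692). With no dye term Gatm (adjusted p 0.669), Lrp2 (0.272) and Slc22a7 (0.101) lost their calls at the same ranges. Gatm also lost its call with equal spread between arrays (0.217) and the re-matched deposited ratios (0.375). Lrp2 and Miox lost theirs with subtracted background (0.0611 and 0.0815) and median centring (0.0697 and 0.0508). Slc22a7 did so without background correction (0.0734). All 4 calls were lost without the 3 arrays that pair diabetic mice (0.245 to 0.397). Havcr1, made by injured cells of the same segment, was 0.17 in diabetic 3, or 0.32 without the array with another identifier. Whether the makeup of the sample has a part in the Lcn2 result was not tested. Markers of glomeruli and endothelium were also lowest in diabetic 3 in 3 of 3 genes, and those of fibroblasts and smooth muscle in 5 of 6.

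**Figure D3:**
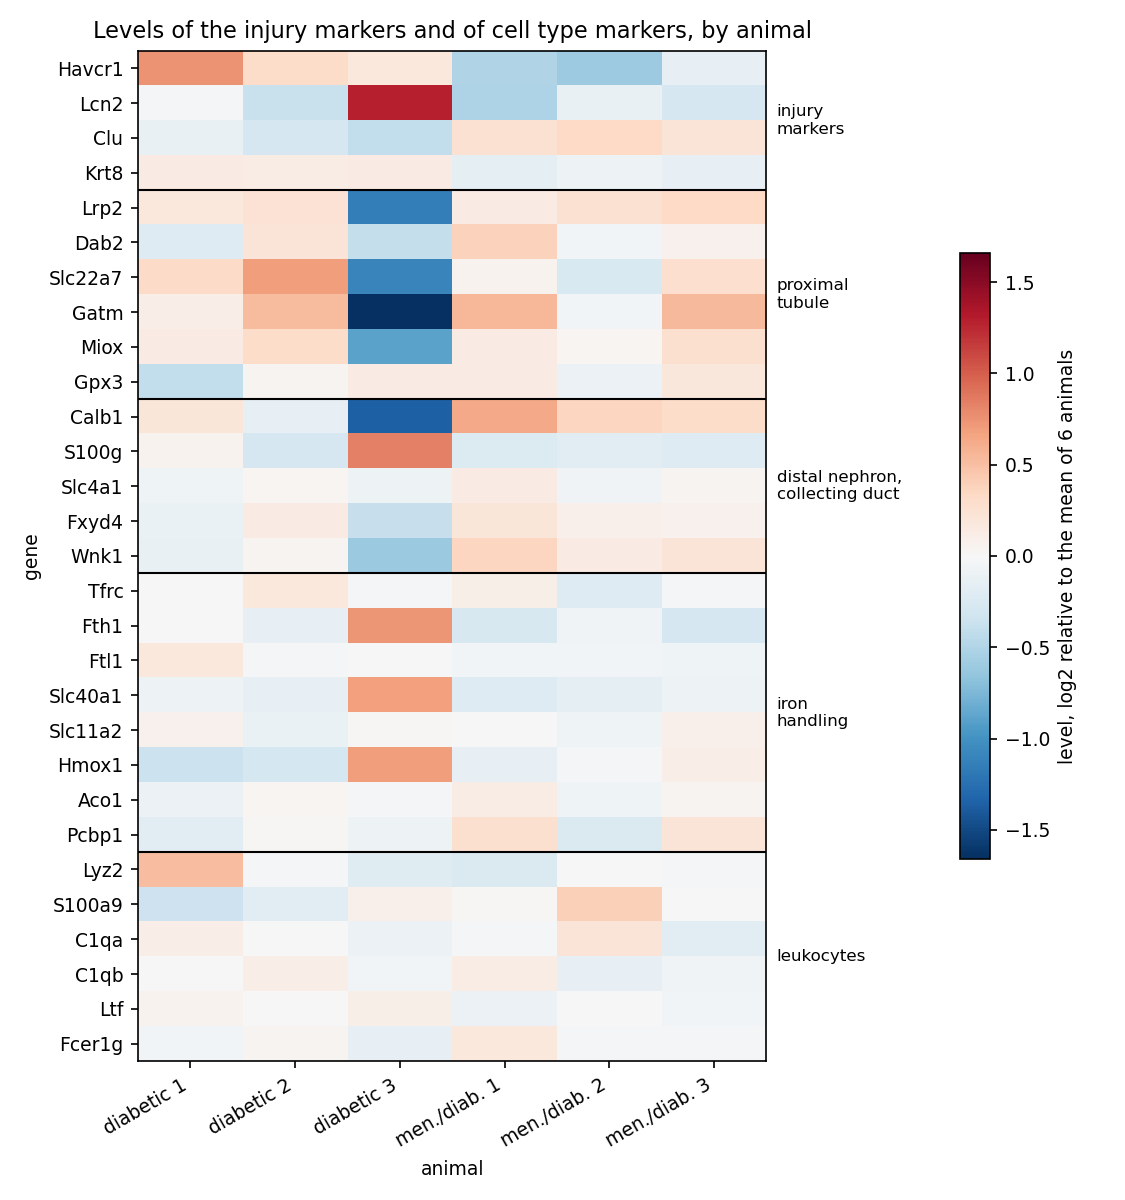
Levels of the 4 markers and of the measured genes of 4 lists in each mouse, on a log2 scale relative to the mean of the 6 mice (red high, blue low). In diabetic 3, Lcn2 and S100g are high, and Gatm, Calb1, Lrp2 and Slc22a7 are low.

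Markers of the distal nephron and collecting duct, the segments in which Lcn2 is mainly induced, were mostly low in diabetic 3 as well. Of 28 such genes 5 were measured, diabetic 3 was lowest in 4 (80%, against 22.4% of all features), and the F test among diabetic mice called 2, against 1.45% of all features. The median brightness percentile of the 5 was 96.1. Calb1, the cytosolic calcium buffer of the distal convoluted and connecting tubule, had -1.36 in diabetic 3 against -0.14 to 0.63 in the other mice (adjusted p 0.0121). S100g, another calcium-binding protein of the connecting tubule, had 0.83 in diabetic 3 against -0.28 to 0.063 (adjusted p 0.000411), and was the 1 gene of the list that was highest there. Without the array with another identifier S100g kept its call (adjusted p 0.0168), and Calb1 lost it (adjusted p 0.0655) at a range of 1.65 instead of 1.55. S100g lost its call with no dye term (adjusted p 0.162), with subtracted background (0.0524) and without the 3 arrays that pair diabetic mice (0.25). Calb1 lost its call there too (0.154, 0.0879 and 0.311), and also without background correction (0.11) and with equal spread between arrays (0.189). The same held for Calb1 with median centring (0.0663, at a range of 0.96) and the re-matched deposited ratios (0.0595). Calb1 kept its call with loess per print block, no filter on dim clones, the mean of all clones, spot medians and marked spots left out. Wnk1, a kinase of salt transport, had -0.62, Fxyd4, a sodium pump regulator of the collecting duct, -0.38, and Slc4a1, the anion exchanger of intercalated cells, -0.08, none of which passed. In the group comparison 0 of the 5 were called by limma over mice. With arrays as the error, which leaves out the spread between mice, S100g (adjusted p 0.0216) and Calb1 (0.0426) were called, as were 0.221% of all features.

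Iron handling genes, listed because lipocalin 2 carries iron in siderophores, gave a mixed picture. Of 17 genes 8 were measured, 0 were called between the groups, and diabetic 3 was highest in 3 (37.5%, against 26.8% of all features): Fth1, the ferritin heavy chain, with 0.73, Slc40a1, the iron exporter ferroportin, with 0.68, and Hmox1, the haem-degrading oxygenase, with 0.70. The F test among diabetic mice called 1 of the 8, Hmox1 (adjusted p 0.0464; 1.45% of all features were called), which is named here after its value was seen, and not Fth1 (adjusted p 0.0747) or Slc40a1 (adjusted p 0.191). Without the array with another identifier Hmox1 was not called (adjusted p 0.264). It also lost its call without background correction (adjusted p 0.396), with subtracted background (0.193), loess per print block (0.0615) and equal spread between arrays (0.105). The same held with no filter on dim clones (0.0656), no dye term (0.0916) and the re-matched deposited ratios (0.581), and without the 3 arrays that pair diabetic mice (0.537). Hmox1 kept its call with median centring, the mean of all clones, spot medians and marked spots left out. Of 22 partners and receptors of the 4 proteins 7 were measured, and Lrp2 was the 1 that passed the F test among diabetic mice, with 0 called between the groups.

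The genes whose log ratios over the 12 arrays were most like those of each marker, among 5869 named genes with all values, are given as a description, since the arrays share mice. For Lcn2 they were Bag2, Vnn1, Slc34a2 and Cbr3, each with a correlation of 0.97, and 36 genes exceeded 0.9. Their levels in diabetic 3 were 0.44, 1.24, 0.70 and 2.22, and in the other mice none exceeded 0.016, so the likeness rests on 1 mouse. Vnn1 encodes a pantetheinase, Slc34a2 a sodium-phosphate cotransporter and Cbr3 a carbonyl reductase. For Havcr1 they were Cops9, Acadm and 9530068E07Rik at 0.87 and Tmem176b at 0.86. Acadm, the medium-chain acyl-CoA dehydrogenase of fatty acid oxidation, had levels of 0.28 to 0.30 in the diabetic mice and -0.40 to -0.11 in the menopausal/diabetic mice. For Clu they were Bach1, a repressor of Hmox1, at 0.89, Cltc, the clathrin heavy chain, at 0.88, Mdh1 at 0.86 and Slc6a8 at 0.85. For the brighter Krt8 clone they were Cnot9 at 0.90, Tdo2 and Fam151a at 0.89 and Kat14 at 0.88. None of the genes compared exceeded 0.9 with Havcr1, Clu or Krt8. These correlations depend on the processing: over the 10 alternatives run on all 12 arrays, Cnot9 ran from 0.096 to 0.95 and Fam151a from 0.12 to 0.96 with Krt8, Cops9 from 0.51 to 0.91 with Havcr1, Bach1 from 0.52 to 0.97 with Clu and Bag2 from 0.56 to 0.97 with Lcn2, whereas Cbr3 stayed between 0.93 and 0.98 and Vnn1 between 0.92 and 0.99 with Lcn2.

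**Figure D4:**
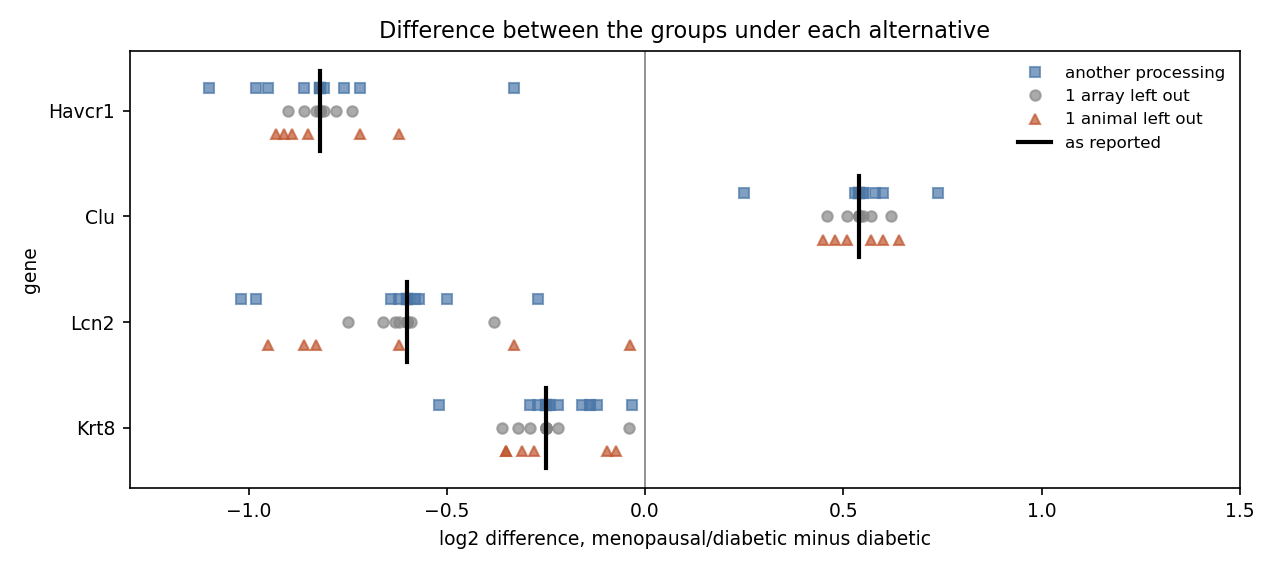
Log2 difference between the groups for each marker as reported (black line), under other processing (squares), with 1 array left out (circles) and with 1 mouse left out (triangles). Havcr1 runs from -1.10 to -0.33 and Clu from 0.25 to 0.74, while Lcn2 reaches -0.038 and Krt8 -0.032.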

How the data were processed

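Cortex RNA of 6 mice was amplified, labelled with Alexa Fluor 546 or 647 and hybridised to 12 arrays, per the labels' protocols. Per the file headers, the deposited scanner files give mean spot intensity and median local background, unscaled. The deposited table of log2 ratios, with normalization not given in the sources used here, matched other arrays: 0 of 12 columns correlated most with their own array, and each matched a different one (Spearman sizes of 0.633 to 0.951 across bright spots), so it served only as an alternative after re-matching. Probe numbers were counted from the slide bottom, which put clones of ribosomal proteins at a mean brightness percentile of 89.8, against 49.9 in file order.

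Ratios were computed with limma 3.58.1 (R 4.3.3) after normexp correction (offset 50) and loess within arrays, then averaged over both spots of each clone. The dimmest 25% of clones (3900 of 15600) were left out and the brightest clone stood for a gene, leaving 5871 named genes and 4087 unnamed clones. The 12 ratios were fitted to 1 level per mouse and a dye term, and levels were tested 3 against 3 with lmFit and eBayes (two-sided, Benjamini-Hochberg, threshold 0.05). The labels do not say whether mice shared litters or batches. Differences within a group used the moderated F test on arrays. The steps were tested on simulated data. The number of arrays limits the precision. Other genes were named by rule: the 3 highest and 3 lowest differences of each list and the 4 genes most correlated with each marker; of these, those on which a result turns are given. Members and lists were chosen with earlier results of these data known. Alternatives changed background correction, normalization, filter, clone, spots, arrays, mice and the error term.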

Additional observations from a re-analysis of the deposited data

Results flagged for a closer look

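The log2 ratio of Lcn2 for the menopausal/diabetic over the diabetic mouse was -2.58 on the array of diabetic 3 with menopausal/diabetic 1, far from the other 5 arrays between the groups, which ran from -0.89 to 0.024. Its gap to the nearest array was 0.651 of the whole range, above Dixon's 95% critical value for 6 values. Chance puts about 1 in 20 groups of independent values past that value, and 5 clones were examined at both ends. The 6 arrays share mice, so that rate need not hold here. The array with the next lowest ratio carries diabetic 3 too. The part of the sample's makeup and of that array was not tested beyond leaving each out: the group difference of Lcn2 was -0.38 without that array and -0.038 without diabetic 3.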

How the results depend on the processing

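Of the 34 alternatives for each marker (35 for Krt8), 13 (12 for Krt8) cannot move a group difference in this design, among them the arrays within a group, the dye term and the error term. The differences kept their sign under the other 21 (23 for Krt8), and none of the 4 passed the threshold except Havcr1 (-0.82, adjusted p 0.039) and Clu (0.54, adjusted p 0.0425) with arrays as replicates, a fit that called 22 features and 2 of the injury list. Values ran from -1.10 to -0.33 for Havcr1, 0.25 to 0.74 for Clu, -1.02 to -0.038 for Lcn2 and -0.52 to -0.032 for Krt8, the smallest sizes of Havcr1 and Clu coming without background correction and the last of Krt8 from its dimmer clone, a choice made after seeing the data, as was the use of spot medians. With the mouse number as a replicate block the values were -0.82, 0.54, -0.60 and -0.25, with adjusted p values of 0.699, 0.537, 0.815 and 0.699, and 0 features were called, as without it. Same-numbered mice deviated from their group means with correlations of -0.044, -0.37 and -0.17 across features, and none correlated best with its own number. Deviations within a group sum to 0, so these values cannot tell whether the numbers pair the mice. Between the groups 2 features were called with equal spread between arrays, and 0 to 46 when 1 array or mouse was left out, the 46 without diabetic 2. Krt18 turned to 0.052 without background correction, 0.46 with subtracted background and 0.08 with spot medians, and ran from -0.27 to 0.097 with 1 array or mouse left out.

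Among the diabetic mice the 144 calls moved most: 42 without background correction, 30 with subtracted background, 272 with loess per print block, 334 with median centring, 68 with equal spread, 46 with no dye term, 31 without the array with another identifier, 77 with the re-matched deposited ratios, 1 without the 3 arrays that pair diabetic mice, and 0 to 188 with 1 array or mouse left out. Among the menopausal/diabetic mice 1 feature was called with loess per print block and 0 to 1 with 1 array or mouse left out. The range of Lcn2 among diabetic mice lost its call without background correction (0.56), with subtracted background (2.79), without the array with another identifier (1.55) and without the 3 arrays that pair diabetic mice (1.82), and ran from 0.18 (without diabetic 3) to 1.85 with 1 array or mouse left out. The cause of these changes was not tested. Leaving arrays out also lowers their number, and the part of that number was not tested either. Signals near background limit the ratios of Lcn2 and Krt8, and that of Havcr1 on the array of menopausal/diabetic 2 with menopausal/diabetic 3. The offset draws such ratios toward 0.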
